A study of Mus musculus with 26 samples.

Results

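The RUNX, CBFB and ETO family was described through 7 genes, Runx1, Runx2, Runx3, Cbfb, Runx1t1, Cbfa2t2 and Cbfa2t3, chosen by name and matched by mouse symbol to 7 of the 54146 gene identifiers in the count files. The series profiled a mouse model of acute myeloid leukemia, and 6 of its 26 samples, all RNA-seq libraries, had count files. Both groups were lineage-negative mouse bone marrow cells made leukemic with a retrovirus carrying the fusion oncogene MLL-AF9 (MA9), co-transduced with SETDB1 in MA9+SETDB1 (3 libraries) or with an empty puromycin-resistance vector in MA9+EV (3 libraries). SETDB1 methylates lysine 9 of histone H3, a mark of repressed chromatin, and the comparison asked which transcripts differed when it was overexpressed. Cells of both groups had been grown for 8 to 12 weeks, with 3 to 6 weeks in puromycin, in medium with IL-3 and SCF. The labels call the libraries biological replicates but do not say whether they came from separate transductions, so p-values reflect no more than how far libraries differed.

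RUNX proteins are transcription factors that bind DNA through a Runt domain, and CBFB is their shared partner, which binds no DNA itself and strengthens the binding of RUNX. RUNX1 is needed to form blood stem cells in the embryo and acts in progenitor, megakaryocyte, lymphoid and mast cells. RUNX2 is best known as the master factor of bone-forming cells, and RUNX3 for its role in T and NK cells. The ETO proteins, encoded by Runx1t1 (ETO), Cbfa2t2 (MTGR1) and Cbfa2t3 (ETO2, also MTG16), are corepressors that bring histone deacetylases to DNA-bound factors. ETO2 is a known member of the TAL1, GATA and LDB1 complex of erythroid, megakaryocyte and mast cells. In human leukemia RUNX1 is fused to ETO or to ETO2, and CBFB to a myosin.

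Gene counts summed to between 18070482 and 21531528 in MA9+SETDB1 libraries and between 18165046 and 22561757 in MA9+EV libraries. Setdb1 itself stood at 475, 605 and 607 CPM (counts scaled to 1000000 per library after TMM normalization) in MA9+SETDB1 replicates 1, 2 and 3, against 105, 108 and 109 CPM in MA9+EV replicates 1, 2 and 3. Leukocyte and progenitor markers (Ptprc, Spi1, Kit, Cd34 and Laptm5) were all detected in both groups. All 7 mast cell and basophil markers were called higher in MA9+SETDB1, with a summed level of 9913 to 10206 CPM against 48.2 to 84.6 CPM in MA9+EV, and none of the 7 was at 0 in MA9+EV. All 8 erythroid markers were also called higher, at 1398 to 1854 CPM against 0.785 to 1.51 CPM in MA9+EV. All 6 neutrophil granule markers were called lower, at 39.7 to 124 CPM against 13499 to 15094 CPM in MA9+EV. The part of these lineage differences in the results below was not tested. Replicates 2 and 3 of each group were much closer to each other than to replicate 1: their counts differed by a chi-square of 3.14 per gene in MA9+SETDB1 and 4.29 in MA9+EV, where counting noise alone gives about 1, against 78.3 to 102 for pairs with replicate 1. Calls of the members and of the other genes named below are given with replicates 2 and 3 summed where that fit ends them; the genes named for a similar pattern are given without calls.

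Runx1 and Cbfa2t3 were high in MA9+SETDB1 and low in MA9+EV, and Runx2 was the reverse. Runx3 and Cbfa2t2 were modestly higher in MA9+SETDB1, Cbfb was close to the threshold, and Runx1t1 was close to absent from both groups. Of the 7 genes, 6 passed the filter on low counts and were tested with edgeR's quasi-likelihood test, with Benjamini-Hochberg adjustment over 12986 genes and a threshold of 0.05. A total of 4 were called higher in MA9+SETDB1, as were 27.4% of all tested genes, and 1 was called lower, as were 26.2%. The libraries of the groups did not overlap for 6 of the 6 tested members, as for 64.6% of all tested genes. Since 53.5% of all tested genes were called in either direction, the number of calls does not set the family apart. With replicates 2 and 3 summed, 3 of the 6 were called (Runx1, Runx3 and Cbfa2t3), against 30.3% of all tested genes, and on replicates 2 and 3 alone 6 of 6 were called, against 79.2%. Runx1 and Cbfa2t3 were among the 11.2% of tested genes called higher with a fitted fold above 4, and Runx2 among the 9.08% called lower with a fold above 4.

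**Figure D1:**
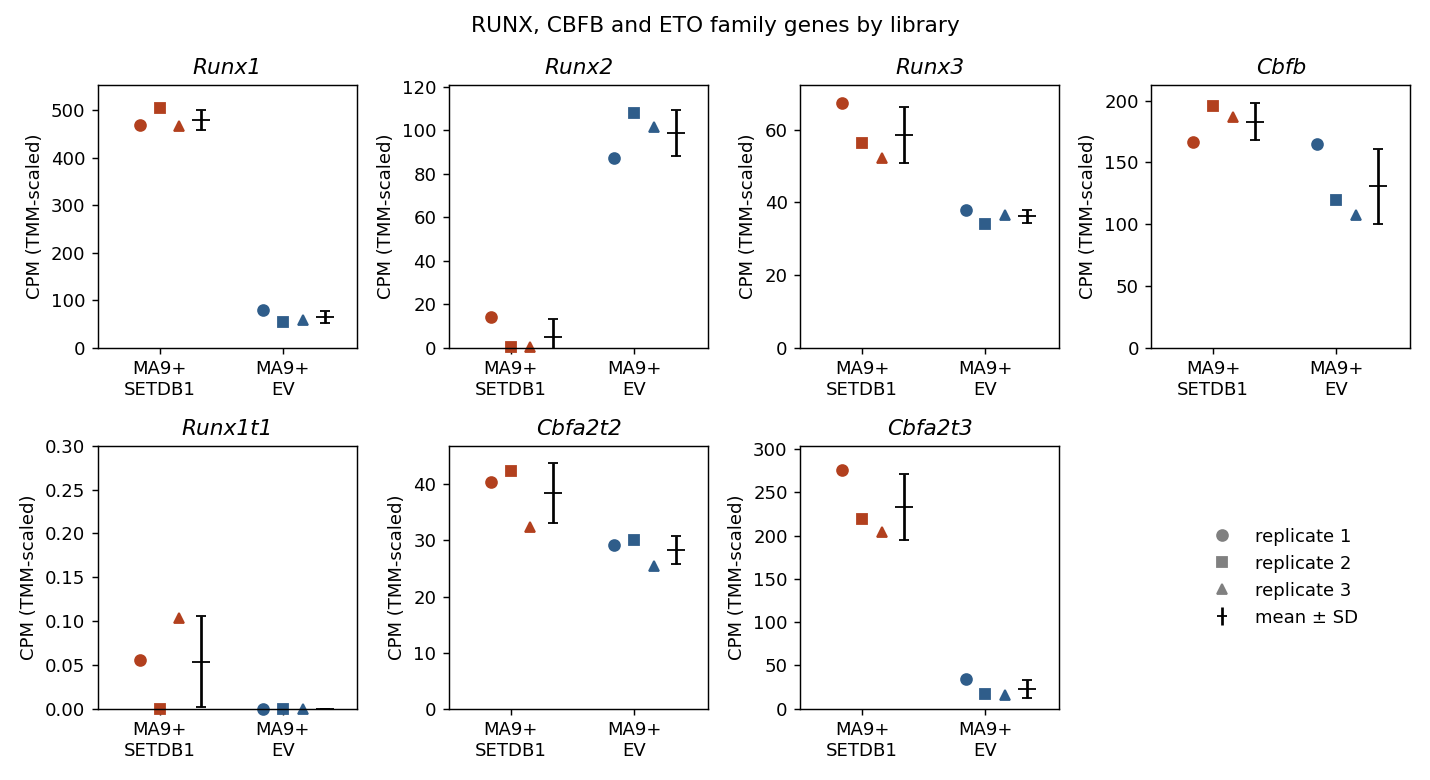
Level of each of the 7 genes in CPM (TMM-scaled, axis from 0) in 3 MA9+SETDB1 libraries (red) and 3 MA9+EV libraries (blue), with the mean and SD of each group in black (the SD of Runx2 in MA9+SETDB1 is cut at 0). The groups are widely apart for Runx1, Runx2 and Cbfa2t3, nearly touch for Cbfb at 166 and 165 CPM, and Runx1t1 has at most 2 counts in any library.

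Runx1 (ENSMUSG00000022952.17, GRCm38 chr16:92601466-92826074) had 468, 504 and 466 CPM in MA9+SETDB1 replicates 1, 2 and 3, against 79.4, 55.1 and 58.8 CPM in MA9+EV replicates 1, 2 and 3. The lowest MA9+SETDB1 library was far above the highest MA9+EV library, and MA9+EV replicate 1 was 1.39 times the mean of the other two. Runx1 rose by 2.89 on the log2 scale (SE 0.17, 95% interval 2.50 to 3.29, edgeR adjusted p = 2.68e-05), a fold of 7.44. In bulk libraries, more cells with the transcript and more of it per cell cannot be told apart. With replicates 2 and 3 summed the log2 fold change was 2.80 and the call held (edgeR adjusted p = 0.00183).

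Runx2 (ENSMUSG00000039153.16, GRCm38 chr17:44495987-44814797) had 14.3, 0.487 and 0.260 CPM in MA9+SETDB1 replicates 1, 2 and 3, from 256, 8 and 5 counts, against 87.1, 108 and 101 CPM in MA9+EV replicates 1, 2 and 3. All MA9+SETDB1 libraries lay below all MA9+EV libraries, but MA9+SETDB1 replicate 1 was 38.4 times the mean of its 2 partners. Runx2 fell by 4.30 on the log2 scale (SE 1.20, 95% interval -7.16 to -1.43, edgeR adjusted p = 0.0211), and it passed the filter through MA9+EV, the group in which it was high. The size of the fall rested on that library. It was -8.04 without MA9+SETDB1 replicate 1 (edgeR adjusted p = 6.27e-06) and -5.33 with the replicate number as a block (edgeR adjusted p = 0.0177). The call was lost without MA9+EV replicate 2 (edgeR adjusted p = 0.0539), without MA9+EV replicate 3 (edgeR adjusted p = 0.0517) and with replicates 2 and 3 summed (edgeR adjusted p = 0.0960). MA9+SETDB1 replicate 1 also had the lowest Setdb1 level of its group, 475 CPM, and the highest summed neutrophil granule markers, 124 CPM against 41.3 and 39.7 CPM in replicates 2 and 3. Most of that excess came from markers other than Elane and Mpo. Elane was lowest in replicate 1, at 4.48 CPM against 4.81 and 5.19 CPM in replicates 2 and 3. Mpo was close in replicates 1 and 2, at 11.97 and 11.93 CPM, and somewhat lower in replicate 3. Whether the Setdb1 level and the summed markers of replicate 1 go with its Runx2 level was not tested.

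Supt3 and Runx2os1, annotated at or named for the Runx2 locus, were also lower. Supt3, a gene for a subunit of the SAGA acetyltransferase complex whose annotated span (chr17:44777118-45119294) contains the start of Runx2, had 8.73, 11.4 and 10.2 CPM in MA9+SETDB1 libraries, against 23.0, 28.3 and 28.3 CPM in MA9+EV libraries. The Supt3 groups did not overlap, and the log2 fold change was -1.39, with an SE of 0.17 and an edgeR adjusted p of 0.00067. Unlike Runx2, Supt3 was not higher in MA9+SETDB1 replicate 1 than in replicates 2 and 3. The Runx2 opposite-strand transcript Runx2os1 had 8, 0 and 0 counts in MA9+SETDB1 and 40, 52 and 53 counts in MA9+EV, and fell by 3.80 on the log2 scale, with an edgeR adjusted p of 0.0150. The Runx2os1 call was lost without MA9+EV replicate 3 (edgeR adjusted p = 0.0518) and with replicates 2 and 3 summed (edgeR adjusted p = 0.118), while that of Supt3 held in each of these fits. Its remaining counts in MA9+SETDB1 were all in replicate 1, which also held most of the Runx2 counts of that group. Runx2os2 had 7, 2 and 5 counts in MA9+SETDB1 and 3, 21 and 24 counts in MA9+EV. Runx2os3 had no count in any library. No source used here gives the strand setting of the counting, so reads of Runx2 and of its opposite-strand genes cannot be told apart for certain.

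**Figure D2:**
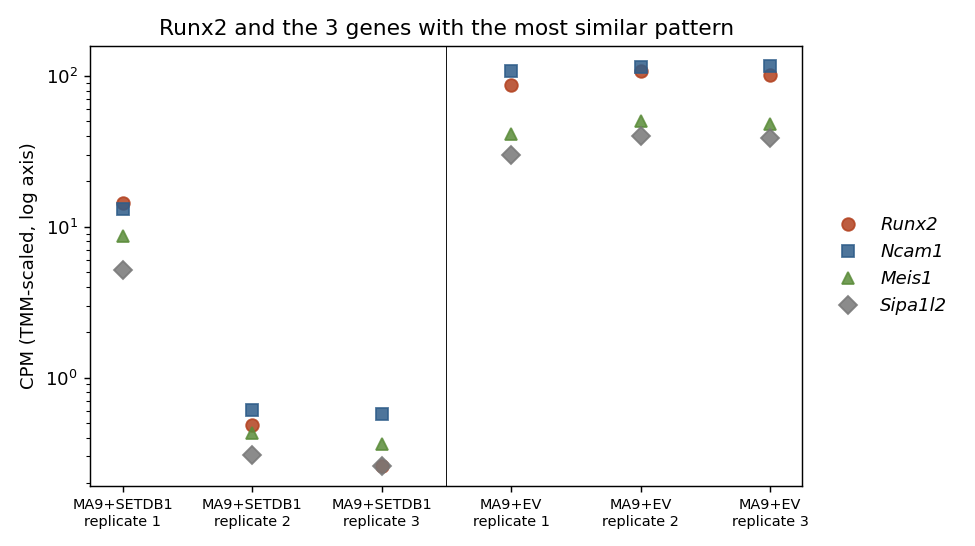
Level of Runx2 and of the 3 genes with the smallest root mean square difference from it, in CPM on a log axis, in 3 MA9+SETDB1 libraries (left) and 3 MA9+EV libraries (right). As the choice of genes fixes, all 4 are lowest in MA9+SETDB1 replicates 2 and 3, between 0.260 and 0.609 CPM, and intermediate in MA9+SETDB1 replicate 1, between 5.15 and 14.3 CPM.

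Runx3 (ENSMUSG00000070691.10, GRCm38 chr4:135120645-135177990) had 67.2, 56.4 and 52.1 CPM in MA9+SETDB1 replicates 1, 2 and 3, against 37.8, 34.1 and 36.5 CPM in MA9+EV replicates 1, 2 and 3. The groups did not overlap, and the gap was narrower than for Runx1. Runx3 rose by 0.70 on the log2 scale (SE 0.13, 95% interval 0.39 to 1.00, edgeR adjusted p = 0.00358), and with replicates 2 and 3 summed the adjusted p was 0.0499. T and NK cells are the best known site of RUNX3, but their markers Cd3e, Cd8a, Ncr1 and Klrb1c had no count in any library, and the summed level of the 7 T and NK markers was 2.57 to 7.12 CPM in MA9+SETDB1 and 6.48 to 6.76 CPM in MA9+EV. The 6 osteoblast and stromal markers, which bear on RUNX2, summed to 35.7 to 82.4 CPM in MA9+SETDB1 libraries and 0.083 to 0.413 CPM in MA9+EV libraries. Only 1 of the 6 had enough counts to be tested, and it was called higher, so the sum does not describe the list as a whole. Of the list's members, Sp7, the factor that acts with RUNX2 in bone-forming cells, had no count in any library. Bglap and Cxcl12 had counts only in MA9+EV, and Col1a2 only in MA9+SETDB1. For Bglap these were 2, 0 and 0 counts in MA9+EV replicates 1, 2 and 3, too few to give a direction.

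Cbfb (ENSMUSG00000031885.14, GRCm38 chr8:105170674-105217989) had 166, 196 and 186 CPM in MA9+SETDB1 replicates 1, 2 and 3, against 165, 119 and 108 CPM in MA9+EV replicates 1, 2 and 3. The groups met at the replicates numbered 1, and MA9+EV replicate 1 was 1.45 times the mean of its partners. The log2 fold change was 0.48 (SE 0.17, 95% interval 0.07 to 0.90) and did not pass (edgeR adjusted p = 0.0527). It passed without MA9+EV replicate 1 (log2 fold change 0.68, edgeR adjusted p = 0.00453), just passed without MA9+SETDB1 replicate 1 (edgeR adjusted p = 0.0498), and was far from passing with replicates 2 and 3 summed (edgeR adjusted p = 0.329).

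Counts of Runx1 relative to those of other members differed between the groups, though not all in 1 direction. Such a ratio depends on the lengths of both transcripts, so it is compared only between libraries, as a description. There were 2.81, 2.57 and 2.50 Runx1 counts for each Cbfb count in MA9+SETDB1 replicates 1, 2 and 3, against 0.481, 0.462 and 0.545 in MA9+EV. For each Runx2 count there were 32.7, 1034 and 1795 Runx1 counts in MA9+SETDB1, against 0.912, 0.511 and 0.580 in MA9+EV. For each Runx3 count there were 6.97, 8.94 and 8.95 Runx1 counts in MA9+SETDB1, against 2.10, 1.62 and 1.61 in MA9+EV. All 3 of these ratios separated the groups, so Runx1 counts were more numerous relative to those of its binding partner and of both paralogs in MA9+SETDB1. The ratio to Cbfa2t3 went the other way, with the groups nearly touching. For each Cbfa2t3 count there were 1.70, 2.30 and 2.28 Runx1 counts in MA9+SETDB1, against 2.33, 3.19 and 3.76 in MA9+EV.

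Of the ETO genes, Cbfa2t3 (ENSMUSG00000006362.16, GRCm38 chr8:122625136-122699332) had 276, 219 and 205 CPM in MA9+SETDB1 replicates 1, 2 and 3, against 34.1, 17.3 and 15.6 CPM in MA9+EV replicates 1, 2 and 3. The groups were far apart, and replicate 1 was the highest of both groups, at 2.07 times the mean of its partners in MA9+EV. Cbfa2t3 rose by 3.38 on the log2 scale (SE 0.33, 95% interval 2.59 to 4.18, edgeR adjusted p = 0.000252), a fold of 10.4. The call held with replicates 2 and 3 summed (edgeR adjusted p = 0.00451).

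Cbfa2t2 (ENSMUSG00000038533.15, GRCm38 chr2:154436098-154539356) had 40.5, 42.4 and 32.4 CPM in MA9+SETDB1 replicates 1, 2 and 3, against 29.3, 30.2 and 25.4 CPM in MA9+EV replicates 1, 2 and 3. The groups did not overlap, but the lowest MA9+SETDB1 library was close to the highest of MA9+EV. Cbfa2t2 rose by 0.44 on the log2 scale (SE 0.15, 95% interval 0.10 to 0.79, edgeR adjusted p = 0.0384). This call was lost in 5 of the 6 fits that left out 1 library: edgeR adjusted p was 0.0575 and 0.139 without MA9+SETDB1 replicates 1 and 2, and 0.0611, 0.0766 and 0.138 without MA9+EV replicates 1, 2 and 3. It was also lost with replicates 2 and 3 summed (edgeR adjusted p = 0.173).

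Runx1t1 (ENSMUSG00000006586.15, GRCm38 chr4:13742628-13895056), the ETO gene itself, had 1, 0 and 2 counts in MA9+SETDB1 and none in MA9+EV, and was not tested. A count of 0 allows up to 3 counts in a library, which is 0.156 to 0.183 CPM in MA9+SETDB1 libraries and 0.124 to 0.151 CPM in MA9+EV libraries. No fold is given, since both groups were at or under that floor. For each Cbfa2t2 count there were 6.82, 5.16 and 6.31 Cbfa2t3 counts in MA9+SETDB1, against 1.16, 0.572 and 0.614 in MA9+EV, with no overlap.

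**Figure D3:**
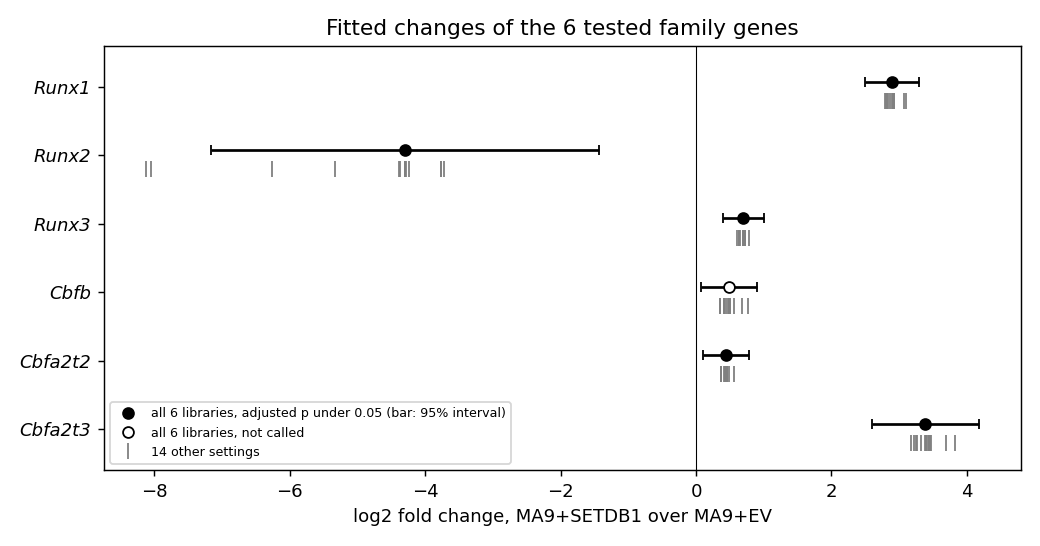
Fitted log2 fold change (MA9+SETDB1 over MA9+EV) of the 6 tested genes, with its 95% interval (bars; the open point is not called) and the values under 14 other settings (grey ticks). Runx1 and Cbfa2t3 stay between 2.79 and 3.82 under all settings, while Runx2 ranges from -8.13 to -3.72.

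The promoter windows of the 3 RUNX genes carry the letters that RUNX proteins themselves read, and these are shown because RUNX factors are known to act on their own promoters. RefSeq (GRCm38.p6) gave windows of 250 bases before to 50 after a start site for 6 of the 7 members, with a distal and a proximal window each for Runx1, Runx3 and Cbfa2t3. Both strands were searched for TGTGGT, whose opposite strand reads ACCACA, and for TGCGGT. These words do not overlap each other in the windows. The longest run shared by the distal windows of Runx1 and Runx3 and the window of Runx2 was 18 bases, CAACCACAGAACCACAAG, which holds ACCACA in 2 copies. It is given below within 30 bases, with both words and their opposite strands in capitals, read along the strand of the gene.
Runx1, chr16:92826025-92826054, minus strand, from base 21 to base 50 after the start site: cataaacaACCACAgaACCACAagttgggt
Runx2, chr17:44814583-44814612, minus strand, from base 16 to base 45 after the start site: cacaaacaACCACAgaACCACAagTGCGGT
Runx3, chr4:135120503-135120532, plus strand, from base -142 to base -113 relative to the start site: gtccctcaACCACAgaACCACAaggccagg

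Of 32851 RefSeq windows, 16.8% held TGTGGT, 6.45% held TGCGGT and 4 held the whole 18-base run, chosen after the sequences were seen. The 4 belonged to Runx1, Runx2, Runx3 and Gm16225, a long noncoding RNA gene whose window overlaps that of Runx3 on the other strand. Windows with at least 2 TGTGGT on 1 strand made up 1.13% of all. The proximal windows of Runx1, Runx3 and Cbfa2t3 and the windows of Cbfb and Cbfa2t2 held neither word, and the distal window of Cbfa2t3 held 1 TGCGGT. The 3 genes that carry the run did not move alike: Runx1 rose by 2.89, Runx3 rose by 0.70 and Runx2 fell by 4.30 on the log2 scale. The counts are per gene and do not separate transcripts of the distal and proximal promoters.

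**Figure D4:**
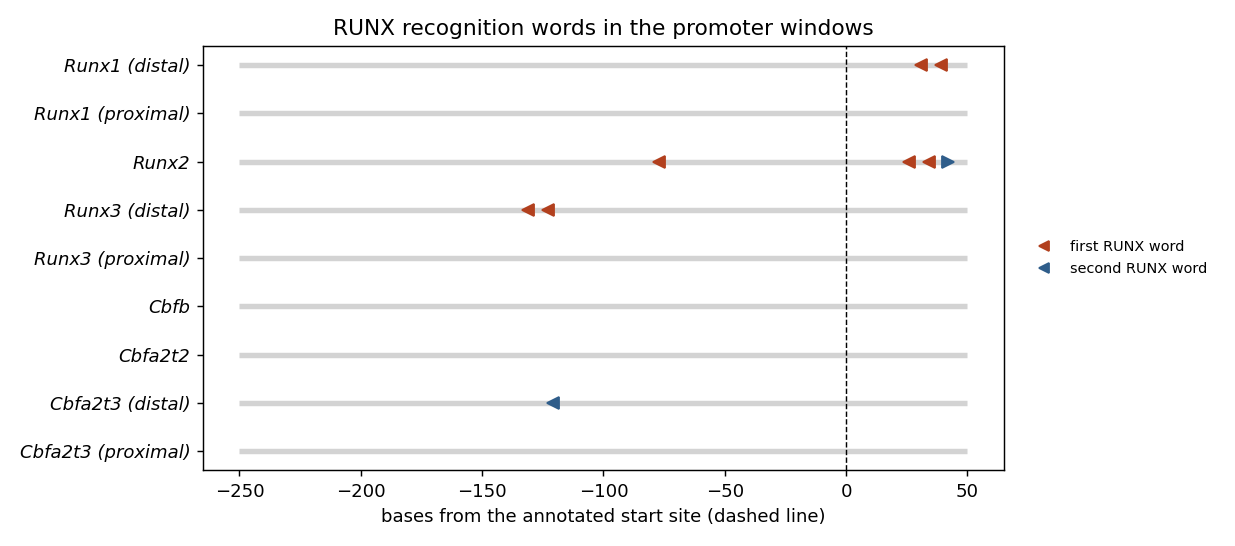
Positions of the RUNX words in the 9 promoter windows of 6 members, in bases from the annotated start site; red marks TGTGGT and blue marks TGCGGT, and arrows point along the strand on which the word reads. The pairs of red arrows in Runx1, Runx2 and Runx3 are the copies within the 18-base run.

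Each tested member was set beside 8796 named genes whose mean CPM reached 10, to find those with the most similar profile over the 6 libraries by root mean square difference of mean-centred log2 CPM. Closest to Runx1 were Ikzf4, an Ikaros family factor gene (0.053), the lipid kinase gene Pip4k2a (0.0811) and Uba7, the activating enzyme gene of ISG15 (0.0992). Closest to Runx2 were Ncam1, a cell adhesion gene (0.317), Meis1, a cofactor gene of HOX proteins (0.553), and Sipa1l2 (0.579). Ncam1 stood at 13.0, 0.609 and 0.571 CPM in MA9+SETDB1 replicates 1, 2 and 3, against 108, 115 and 117 CPM in MA9+EV. These neighbours were chosen over all 6 libraries, MA9+SETDB1 replicate 1 included, so their likeness to Runx2 in that library is part of the choice. Closest to Cbfa2t3 were Phlda3 (0.102), Traf4 (0.116) and Hspa2 (0.195), and closest to Runx3 were Cul5 (0.0466), Rmc1 (0.048) and Naa35 (0.0563). Gtf2a1 (0.0446), Zbtb7b (0.0562) and Cflar (0.0565) were closest to Cbfb, and Slx4ip (0.0766), Twsg1 (0.0963) and Galk2 (0.103) to Cbfa2t2.

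Of 16 genes for proteins that bind RUNX or CBFB, all tested, 5 rose and 2 fell (43.8% called, against 53.5% of all tested genes), with a median log2 fold change of 0.09 against -0.01 over all tested genes. Tle3, a Groucho corepressor that binds the C-terminal end of RUNX proteins, was at 221 ± 41.7 CPM in MA9+SETDB1 and 87.7 ± 7.25 CPM in MA9+EV (SD, n = 3 each; log2 fold change 1.33). The acetyltransferase gene Ep300 rose by 0.85, and Hipk2, a kinase of RUNX1, rose by 1.77 on the log2 scale. Brpf1, of the MOZ acetyltransferase complex, fell by 0.56, and Suv39h1, an H3K9 methyltransferase gene, fell by 0.76. The deacetylase scaffold gene Sin3a was at 131 ± 17.5 CPM in MA9+SETDB1 and 138 ± 8.23 CPM in MA9+EV (edgeR adjusted p = 0.603). With replicates 2 and 3 summed the calls for Ep300, Brpf1 and Suv39h1 were lost, at edgeR adjusted p of 0.0510, 0.105 and 0.0945.

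Of 17 corepressor and DNA-binding partners of the ETO proteins, 15 were tested, 3 rose and 4 fell (46.7% called, against 53.5% of all tested genes), with a median of 0.02. Gfi1, a repressor of granulocyte and stem cells known to bind ETO, was at 6.99 ± 6.26 CPM in MA9+SETDB1 and 402 ± 90.2 CPM in MA9+EV, and fell by 5.84. The deacetylase gene Hdac2 fell by 0.56, while Sin3b rose by 1.01. The E protein genes Tcf3 and Tcf12, whose products bind ETO proteins, rose by 0.71 and 0.43. The Tcf12 call was lost without MA9+EV replicate 2 or 3 (edgeR adjusted p up to 0.0660) and with replicates 2 and 3 summed (edgeR adjusted p = 0.120), and that for Hdac2 in the summed fit (edgeR adjusted p = 0.0627).

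In the TAL1 and LDB1 complex, where ETO2 acts, 9 of 14 genes rose and 3 fell, all being tested (85.7% called, against 53.5% of all tested genes, median 1.03). Tal1 was at 284 ± 41.6 CPM in MA9+SETDB1 and 0.078 ± 0.0633 CPM in MA9+EV, and the GATA factor genes Gata1 and Gata2 rose by 10.13 and 10.46. Tal1, Gata1, Gata2 and another gene of the list passed the filter only through MA9+SETDB1, the group in which they were high. The share called therefore depends in part on the filter. Klf1, an erythroid factor gene, rose by 6.87 to 90.7 ± 36.2 CPM in MA9+SETDB1 libraries, against 0.781 ± 0.281 CPM in MA9+EV libraries. The LIM-only genes went the other way: Lmo4 fell by 2.84, and Lmo2, the bridge between TAL1 and LDB1, had 91.9, 23.4 and 23.7 CPM in MA9+SETDB1 replicates 1, 2 and 3, against 232, 165 and 164 CPM in MA9+EV. Lmo2 fell by 2.01 (edgeR adjusted p = 0.0204), a call that was lost without MA9+SETDB1 replicate 2 or 3 or MA9+EV replicate 1 (edgeR adjusted p up to 0.0599) and with replicates 2 and 3 summed (edgeR adjusted p = 0.0866). Gata1 and Klf1 also served as erythroid markers, so the list was not separate from the lineage differences given above.

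Factors known to share genomic sites with RUNX1 in stem and progenitor cells moved in both directions, with 2 of 7 higher and 2 lower (57.1% called, against 53.5% of all tested genes, median 0.10). The 2 higher were Tal1 and Gata2, and the 2 lower were Lmo2 and Fli1, an ETS factor gene that fell by 1.77. Both Tal1 and Gata2 passed the filter only through MA9+SETDB1, the group in which they were high. Spi1, the PU.1 gene and a known RUNX1 target, was at 209 ± 10.5 CPM in MA9+SETDB1 and 195 ± 24.3 CPM in MA9+EV (log2 fold change 0.10, edgeR adjusted p = 0.501). Lyl1 was at 220 ± 35.8 CPM in MA9+SETDB1 and 174 ± 15.7 CPM in MA9+EV (edgeR adjusted p = 0.0960), and passed without MA9+SETDB1 replicate 1.

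Known target genes of RUNX moved in both directions. The lists do not separate targets that RUNX activates from those it represses, so rises and falls are not read as RUNX activity. Of 9 myeloid targets, 7 were tested, 4 rose and 2 fell (85.7% called, against 53.5% of all tested genes, median 0.73). The granule protein genes Elane and Mpo, which also served as neutrophil markers, fell by 10.32 and 8.29, to 4.83 ± 0.36 and 11.1 ± 1.41 CPM in MA9+SETDB1 libraries, against 6174 ± 628 and 3486 ± 1371 CPM in MA9+EV libraries. Csf1r, the M-CSF receptor gene, rose by 2.27, and the integrin gene Itgal by 1.42. Gzmb, the granzyme B gene, passed the filter through MA9+SETDB1, with 16823 counts in MA9+SETDB1 and 3 in MA9+EV. Scaled by library size that ratio was 7138, with a 95% counting interval of 2442 to 34616.

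Of 10 megakaryocyte targets of RUNX1, 6 were tested, of which 4 rose and 2 fell (100% called, against 53.5% of all tested genes, median 2.58). Nfe2, a factor gene of platelet formation, rose by 1.23, and Itga2b, the platelet integrin alpha IIb gene, by 11.30, to 565 ± 69.1 CPM in MA9+SETDB1 libraries, against 0.21 ± 0.144 CPM in MA9+EV libraries. Prkcq, a protein kinase C gene, had 2975 counts in MA9+SETDB1 and 1 in MA9+EV, which scaled to a ratio of 3787, with a 95% counting interval of 679 to 149623. Pf4, the platelet factor 4 gene and the best known of these targets, was low in both groups, at 0.245 ± 0.0517 CPM in MA9+SETDB1 and 1.14 ± 0.226 CPM in MA9+EV, and fell by 2.20. Pctp, a phospholipid transfer gene, fell by 1.98. Prkcq and Itga2b passed the filter through MA9+SETDB1, and Pf4 through MA9+EV, in each case the group in which the gene was high.

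Of 11 lymphoid targets, 5 were tested and 4 rose, with none lower (80% called, against 53.5% of all tested genes, median 2.95, also with Il4 at its bound). Gzmb is on this list too. Il4, Gzmb and Il7r passed the filter only through MA9+SETDB1, the group in which they were high. The share of rises and the median therefore depend in large part on the filter. The 6 not tested had few or no counts, and those with any had more in MA9+EV. Il4, a type 2 cytokine gene also made by mast cells and basophils, had no count in MA9+EV and was at least 1579-fold higher in MA9+SETDB1 by a floor of 3 counts over the group. Il7r rose by 2.95, with 3.47 ± 1.16 CPM in MA9+SETDB1 and 0.447 ± 0.111 CPM in MA9+EV. Zbtb7b, a factor gene of helper T cells, rose by 0.52, a call lost without either of replicates 2 and 3 of each group (edgeR adjusted p up to 0.119) or with these summed (edgeR adjusted p = 0.258). Itgae was at 1.68 ± 1.55 CPM in MA9+SETDB1 and 0.775 ± 0.464 CPM in MA9+EV (edgeR adjusted p = 0.265). Of 9 skeletal targets of RUNX2, only 2 were tested, and both rose in MA9+SETDB1, the group with less Runx2 (100% called, against 53.5% of all tested genes). The 2 calls do not describe the list, since Alpl passed the filter through MA9+SETDB1, the group in which it was high. The 7 not tested had few or no counts, with more in MA9+EV for some and more in MA9+SETDB1 for others. Spp1, the osteopontin gene, had 72.1, 475 and 485 CPM in MA9+SETDB1 replicates 1, 2 and 3, against 43.0, 33.6 and 30.0 CPM in MA9+EV, and rose by 3.28, a call lost with replicates 2 and 3 summed (edgeR adjusted p = 0.0565). Alpl had no count in MA9+EV and was at least 28.9-fold higher by the same floor, at 1.28 ± 0.539 CPM in MA9+SETDB1. The median of these 2 was 5.49 as fitted and 4.06 with Alpl at its bound.

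**Figure D5:**
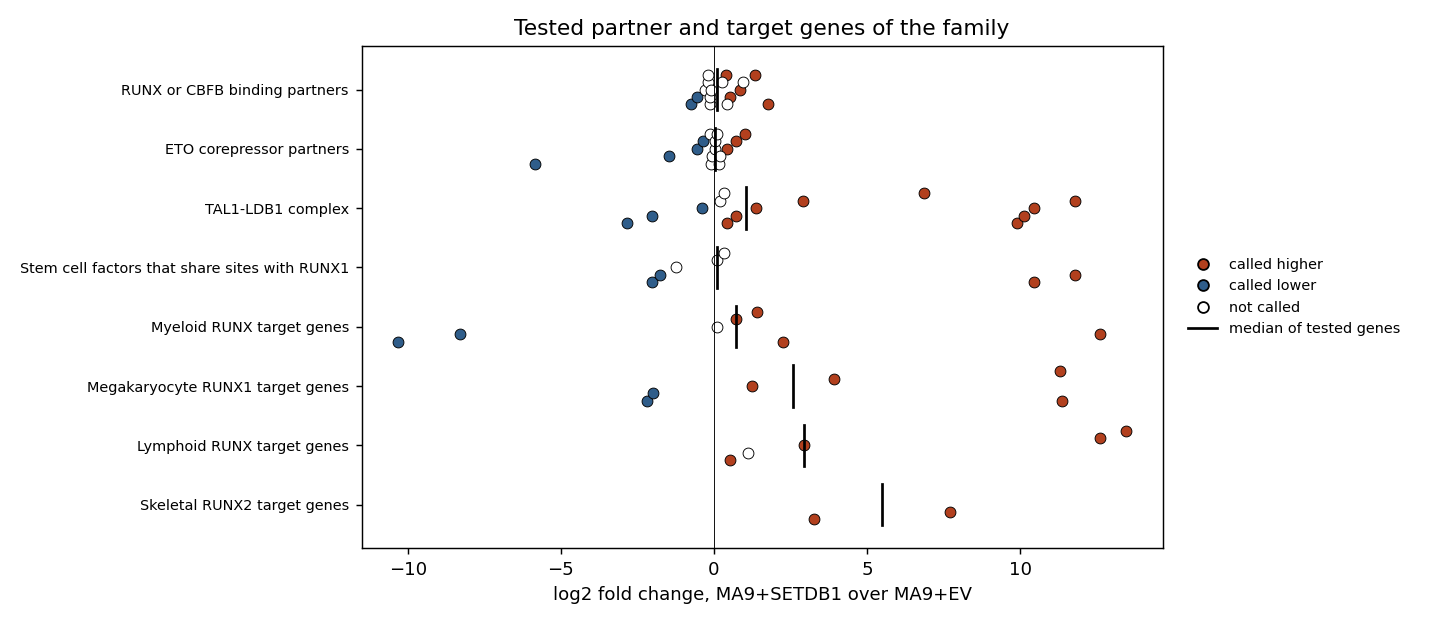
Fitted log2 fold change (MA9+SETDB1 over MA9+EV) of each tested gene in 8 lists of partners and targets, with the median of each list as a black line and called genes filled (red higher, blue lower). Binding and corepressor partners sit near 0 apart from Gfi1, while TAL1 complex and target genes spread from -10.32 to 13.46; values of genes with 0 to 3 counts in a group depend on the fit's prior count.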

How the data were processed

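The deposited values were whole-number counts of reads per gene, without normalization, 1 file for each of 6 RNA-seq libraries; the other 20 samples (chromatin immunoprecipitation and ATAC-seq) were not analysed here. The libraries were strand-specific and poly-A selected, per the labels' protocols. The submitters' processing notes name GRCm38, STAR 2.6.0c and HTSeq 0.11.0, among other tools, without role; no source used here gives the strand setting of counting. The summary lines that close each file, 24.6% to 26.3% of entries, were left out.

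Identifiers were matched to symbols (52480 by version, 1599 by stable identifier, 67 unmatched). Coordinates and sequences came from RefSeq tables for GRCm38.p6. Counts were filtered with filterByExpr, scaled with TMM and tested with edgeR's quasi-likelihood test (edgeR 4.0.16, limma 3.58.1, DESeq2 1.42.0, R 4.3.3), which was tested on simulated data. The common biological coefficient of variation was 0.244. CPM values use TMM-scaled library sizes, and standard errors come from the F statistic. Transcript lengths were not used here, so the planned levels per length were left out and levels of different genes are not compared. Counting intervals are exact binomial, and with the floor of 3 counts they cover counting error only, since reads carry no molecular identifiers.

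The members, lists and naming rule were chosen with earlier results of these data known. The rule took the 7 members, Setdb1, per list the 5 tested genes with the smallest p and those on more than 1 list, the 3 genes closest in pattern to each tested member, and genes overlapping or antisense to a member. A gene that this rule names is not reported here. Both groups use replicate numbers 1 to 3. Deviations of same-numbered libraries from their group means had correlations across genes of 0.257, 0.196 and 0.169 (numbers 1, 2 and 3), which met the limit of 0.1 set for pairing; MA9+SETDB1 replicate 3 deviated as closely with MA9+EV replicate 2 (0.203), so the pairing is clear for number 1 only. Alternatives were other scalings, no filter, DESeq2, limma-voom, the block, replicates 2 and 3 summed, each library left out, and, added after seeing the data, replicates 2 and 3 alone.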

Additional observations from a re-analysis of the deposited data

How the results depend on the processing

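Runx1, Runx3, Cbfa2t3 and Setdb1 kept their direction and their call in all 14 alternatives, and no tested member reversed its direction. Runx2 stayed lower throughout. Its log2 fold change was -3.76 and not called with replicates 2 and 3 summed, and ranged from -8.04 to -3.72 when 1 library was left out. Cbfa2t2 stayed higher but was not called with upper-quartile scaling (0.38), with no filter (0.44) or with replicates 2 and 3 summed (0.43), and ranged from 0.36 to 0.56 when 1 library was left out. Cbfb was called with DESeq2 (0.49), with limma-voom (0.50) and on replicates 2 and 3 alone (0.76), and ranged from 0.36 to 0.68 when 1 library was left out. The last setting treats near-identical libraries as independent. With the replicate number as a block, the log2 fold changes were 2.91 for Runx1, -5.33 for Runx2 and 3.46 for Cbfa2t3, and the block changed no call among the members or the named list genes.

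Of all tested genes 6951 were called, against 4220 with replicates 2 and 3 summed and 10599 on replicates 2 and 3 alone. In those 2 settings the binding partners of RUNX and CBFB had 2 and 11 calls, in place of 7. The ETO partners had 11 calls on replicates 2 and 3 alone, in place of 7, and the skeletal targets 1 in place of 2 with replicates 2 and 3 summed. Other list counts stayed within 1.5 times. Fewer libraries (summed) or a smaller spread (replicates 2 and 3 alone) are part of how these settings are built. Depth limits Runx1t1 and the genes with 0 to 3 counts in a group. The planned levels per transcript length, and their alternative, were not run.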

Other observations

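Among tested genes with a RefSeq promoter window, TGTGGT was found in a window of 17.2% of 2729 genes called higher in MA9+SETDB1, of 15.6% of 2618 called lower and of 14.1% of 4387 not called. These shares are a description, and windows differ in number between genes. Over all genes with a window, 5113 of 27025 held the word. Of the 8 partner and target lists, the lymphoid targets held it in 4 of 8 genes with a window (Zbtb7b, Prf1, Gzmb and Il7r), the skeletal targets in 3 of 7, and the megakaryocyte targets in 0 of 8. The myeloid targets held it in 2 of 6 and the stem cell factors in 0 of 4. Partners of RUNX or CBFB held it in 2 of 14, ETO partners in 2 of 13 and the TAL1 complex in 1 of 13.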
